A study of Mus musculus with 22 samples.

Results

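Complement genes were followed in pancreatic CD8α- dendritic cells (DCs) of NOD and C57BL/6 mice. The set holds 8 genes chosen by name, namely the C1q chain genes C1qa, C1qb and C1qc, the central component C3, the alternative pathway genes Cfb and Cfp, and the anaphylatoxin receptor genes C3ar1 and C5ar1. All probe sets annotated to 1 of these genes alone were taken. They numbered 13 and measured 7 of the 8 genes, out of 18193 genes and 45037 probe sets on the array. C3 had no probe set under its name in the annotation table used here and was not analysed here. In GRCm38.p6 C1qb (chr4:136880126-136886200), C1qc (chr4:136889801-136892936) and C1qa (chr4:136895916-136898844) lie side by side. Cfb (chr17:34856374-34862514), C3ar1 (chr6:122847140-122856157), C5ar1 (chr7:16246743-16259540) and Cfp (chrX:20925454-20931555) lie apart from them and from each other.

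CD11c+CD8α- cells were sorted from CD45-enriched pancreas of female NOD/ShiLtJ mice, a strain that develops autoimmune diabetes spontaneously, and of female C57BL/6J control mice aged 5 weeks. Each sample came from a pool of 10 pancreases. RNA was amplified and hybridised to 22 Affymetrix Mouse Genome arrays. At steady state, without culture, 4 C57BL/6 and 3 NOD arrays were measured. After 18 h of culture there were 4 C57BL/6 and 4 NOD arrays with PBS, and 3 C57BL/6 and 4 NOD arrays with LPS, a bacterial cell wall product that activates Toll-like receptor 4. The steady state and cultured cells are called separate experiments in the design text, whereas the methods state that each sort was divided. The comparisons that use the same group share its arrays and are not independent of each other.

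Complement is a set of secreted proteins that tag microbes and dying cells. C1q starts the classical pathway and is built from 3 chains, encoded by C1qa, C1qb and C1qc. It is made largely by macrophages and DCs in the tissue rather than by the liver, which secretes most other components. In the alternative pathway, factor B (Cfb) supplies the protease that cleaves C3, and properdin (Cfp) stabilises that protease on a surface. C3ar1 and C5ar1 encode the receptors of the cleavage fragments C3a and C5a, which attract and activate myeloid cells.

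All 12 listed DC markers lay above the lower quartile of the arrays in every group, with Cd74 and H2-Ab1, of antigen presentation by MHC class II, at or above the 97.8th percentile of probe sets. Itgax, Flt3 and Zbtb46 were dimmer, with lowest percentiles of 58.1, 68.3 and 72.6. The macrophage genes Csf1r, Fcgr1 and Adgre1 were bright, at or above the 94.4th percentile in every group, whereas Mertk had a lowest percentile of 75.5. None of the 15 measured of 16 listed macrophage markers lay below the lower quartile. The summed level of these markers on the linear scale lay between 158000 and 171000 at steady state in both strains, and between 77500 and 113000 in culture. All 7 measured of 9 listed markers of acinar cells, the enzyme-producing cells of the pancreas, were lower after PBS culture than at steady state in both strains, where 30.0% of all genes were lower in NOD and 32.3% in C57BL/6. The summed level of the acinar markers was 53600 to 1e+05 at steady state and 3740 to 48300 in culture. Their part in the results below was not tested. In such bulk samples, fewer cells of a type and less RNA per cell cannot be told apart.

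The 3 neighbouring C1q chain genes were all lower in NOD in LPS culture, so the bases just upstream of their start sites are shown where a reference entry was at hand, which was the case for C1qb and C1qc. The sequences come from RefSeq (GRCm38.p6), are 250 bases long, and end at the base before the transcript start of the promoter table on the minus strand, which for C1qc lies inside the gene span given above. The window of C1qb is chr4:136886201-136886450, and that of C1qc is chr4:136892915-136893164. Capitals mark AGGAAGT, on either strand, a core recognised by factors of the ETS family, of which PU.1 is a main regulator of myeloid genes.
C1qb: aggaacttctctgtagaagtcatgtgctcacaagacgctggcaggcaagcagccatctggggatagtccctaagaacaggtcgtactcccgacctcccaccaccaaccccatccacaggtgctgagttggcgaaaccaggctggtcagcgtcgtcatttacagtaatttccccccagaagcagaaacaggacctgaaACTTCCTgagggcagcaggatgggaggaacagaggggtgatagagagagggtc
C1qc: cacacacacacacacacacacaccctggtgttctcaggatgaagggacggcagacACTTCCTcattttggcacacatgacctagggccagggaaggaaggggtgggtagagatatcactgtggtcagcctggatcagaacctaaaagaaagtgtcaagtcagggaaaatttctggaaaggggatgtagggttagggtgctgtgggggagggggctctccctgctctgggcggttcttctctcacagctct
AGGAAGT, read on both strands, occurred once in each of these windows. It stood at 47 bases before this start in C1qb and 189 bases in C1qc, counted to the base nearest the start. C5ar1 held it 2 times. In total 3 of the 6 windows of listed genes held it, as did 7.69% of 32851 promoter windows of the same length. TGANTCA, the AP-1 motif, occurred in 1 of the 6 windows, that of C3ar1, and in 6.75% of all windows. TTCNNNGAA, a STAT element, occurred in none of the 6 and in 7.02% of all windows. These letters were chosen with the sequences in view, and a match is a description of the sequence only.

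The genes were expressed at a high level. Apart from the dimmer Cfp probe set, the 12 other probe sets lay at or above the 86.2th percentile on every array. The highest values were those of C1qb, up to 14.36 on the log2 scale of the arrays, whose maxima were 15.22 to 15.34. A level on this scale belongs to a probe set, so levels are not compared between genes here.

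**Figure D1:**
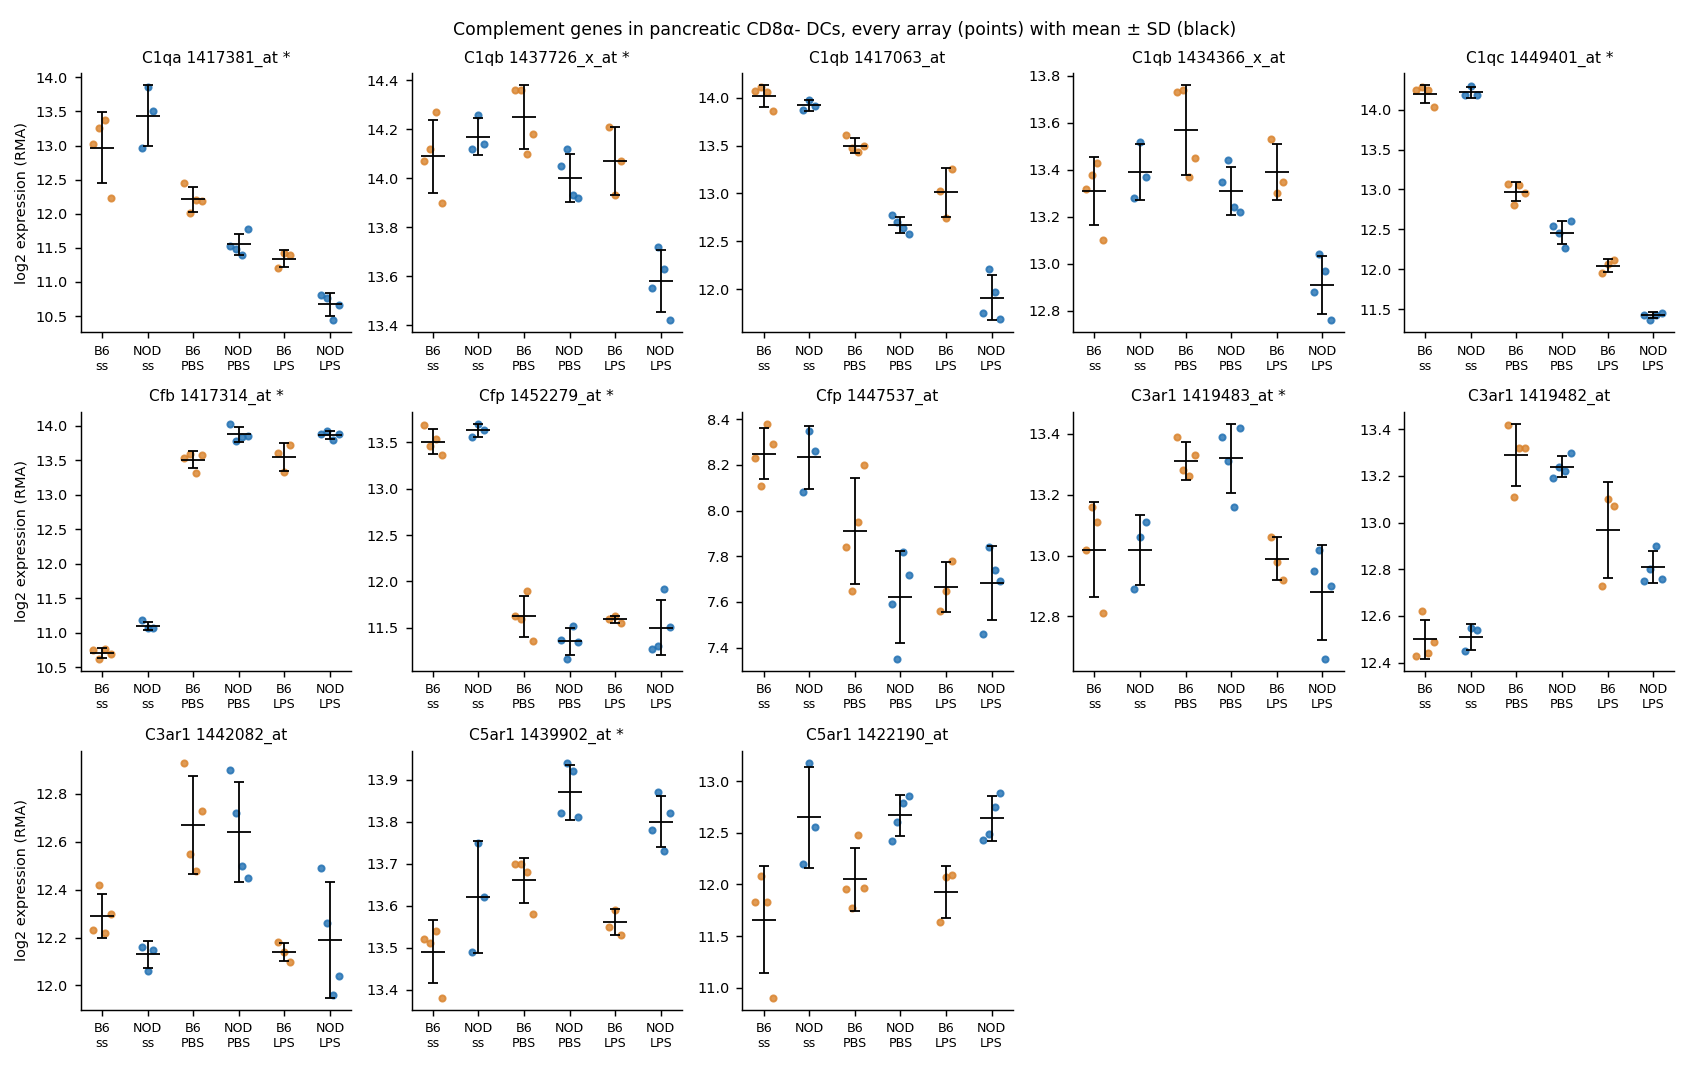
Log2 expression (RMA, y axis) of the 13 complement probe sets on each of the 22 arrays by group (x axis; B6 is C57BL/6, ss is steady state; orange C57BL/6, blue NOD). Points are arrays, black bars the group mean ± SD, and an asterisk marks the brightest probe set of a gene. C1qa and C1qc step down from steady state through PBS to LPS culture, Cfb steps up and Cfp steps down from steady state to culture.

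Expression is given as log2 values that the authors normalised with RMA. A strain difference is thus one of probe set signal, and whether the probes match both strains alike was not tested. Each difference was tested with limma, SE is its moderated standard error, and it passed where the Benjamini-Hochberg adjusted p over all 45037 probe sets was under 0.1. The first question was whether C1q differed between the strains. In cultured cells the C1q chain genes were lower in NOD, by 1.42 to 1.78-fold with PBS and by 1.39 to 2.15-fold with LPS over the probe sets that passed the test. With PBS the brightest C1qb probe set, 1437726_x_at, and 1434366_x_at did not pass. At steady state no C1q probe set passed. Cfb was higher in NOD at steady state and with PBS, by 1.32-fold and 1.29-fold.

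In PBS culture, C1qa was at 12.45, 12.01, 12.20 and 12.18 in the C57BL/6 arrays and at 11.53, 11.49, 11.40 and 11.78 in the NOD arrays. Every NOD array lay below every C57BL/6 array. The log2 difference was −0.66 (SE 0.129), with an adjusted p of 0.00996 from limma. In LPS culture the values were 11.20, 11.42 and 11.40 in C57BL/6 and 10.81, 10.77, 10.44 and 10.66 in NOD. Again the groups did not overlap, and the log2 difference was −0.67 (SE 0.13, adjusted p = 0.0126). Both calls remained without each array in turn.

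C1qc followed the same order. With PBS it stood at 13.07, 12.81, 13.05 and 12.95 in C57BL/6 and at 12.54, 12.45, 12.26 and 12.60 in NOD, without overlap (log2 difference −0.51, SE 0.118, adjusted p = 0.0243). With LPS it stood at 11.95, 12.07 and 12.11 in C57BL/6 and at 11.43, 11.36, 11.43 and 11.45 in NOD. These groups did not overlap either (log2 difference −0.62, SE 0.107, adjusted p = 0.00695). Both calls held without each array in turn.

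C1qb was measured by 3 probe sets that did not behave alike. The probe set 1417063_at stood at 13.61, 13.48, 13.43 and 13.50 in C57BL/6 and at 12.77, 12.70, 12.64 and 12.58 in NOD with PBS. All NOD arrays were lower (log2 difference −0.83, SE 0.103, adjusted p = 5.1e-04). With LPS it stood at 13.03, 12.74 and 13.26 in C57BL/6 and at 11.75, 12.21, 11.97 and 11.69 in NOD. The log2 difference there was −1.10 (SE 0.166) at an adjusted p of 0.00336. The brightest probe set of C1qb, 1437726_x_at, and 1434366_x_at carry the suffix of probe sets whose probes can also match other transcripts. With PBS the brightest differed by −0.25 (SE 0.112) on the log2 scale, the other by −0.26 (SE 0.124). Both overlapped between the strains and neither passed (adjusted p = 0.267 and 0.291). With LPS they differed by −0.49 (SE 0.125) and −0.48 (SE 0.121), without overlap (adjusted p = 0.0458 and 0.0429). The call of the brightest probe set was lost without C57BL/6 LPS replicate 2 (adjusted p = 0.14), C57BL/6 LPS replicate 4 (adjusted p = 0.108) or NOD LPS replicate 4 (adjusted p = 0.119), and that of 1434366_x_at without C57BL/6 LPS replicate 2 (adjusted p = 0.134) or NOD LPS replicate 4 (adjusted p = 0.114).

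At steady state C1qa was at 13.02, 13.26, 13.37 and 12.23 in C57BL/6 and at 12.97, 13.86 and 13.50 in NOD, where C57BL/6 replicate 6 was the lowest. The log2 difference of 0.47 (SE 0.271) did not pass, at an adjusted p of 0.309. Blocked on the replicate number it was 0.61 and passed (adjusted p = 0.0406), as it did with array weights (0.38, adjusted p = 0.0524). It was 0.23 without C57BL/6 steady state replicate 6, 0.27 without NOD steady state replicate 4 and 0.71 without NOD steady state replicate 1, and none of the 7 fits that left out an array passed. C1qc was at 14.25, 14.28, 14.25 and 14.04 in C57BL/6 and at 14.18, 14.30 and 14.18 in NOD, overlapping, and differed by 0.02 (SE 0.0985, adjusted p = 0.935). The 3 probe sets of C1qb differed by −0.10, 0.08 and 0.08 on the log2 scale, with adjusted p from 0.54 to 0.683.

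Among the macrophage markers, 1 was higher and 2 were lower in NOD at steady state, 3 were higher and 2 lower with PBS, and 3 higher and 2 lower with LPS, of 15 measured. Of all genes, 6.87%, 5.43% and 5.21% were higher in these conditions, and 8.35%, 5.28% and 5.43% lower. The median log2 differences of the macrophage markers were −0.0606, 0.0386 and 0.0574. In limma at steady state, Cd68 was higher (0.36, adjusted p = 0.0444), and Marco (−1.41, adjusted p = 0.00228) and Cd5l (−1.97, adjusted p = 0.00314) were lower. With LPS, Mrc1 (1.05, adjusted p = 0.0115), Cd14 (1.03, adjusted p = 0.00103) and Cd163 (0.63, adjusted p = 0.0213) were higher. Timd4 (−1.03, adjusted p = 0.00126) and Cd5l (−1.01, adjusted p = 0.0425) were lower there. In PBS culture the 3 higher markers were the LPS co-receptor gene Cd14 (log2 difference 1.66, adjusted p = 1.29e-04), Mrc1 (0.94, adjusted p = 0.00337) and Cd163 (0.86, adjusted p = 0.0662), and the 2 lower were Mertk (−0.50, adjusted p = 0.0662) and Timd4 (−0.74, adjusted p = 0.0235). Of the 12 DC markers, 5, 6 and 7 were lower in NOD at steady state, with PBS and with LPS, where 8.35%, 5.28% and 5.43% of all genes were lower, and 0, 1 and 0 were higher. With PBS the summed DC marker level ran from 40200 to 47300 on the NOD arrays and from 57000 to 63200 on the C57BL/6 arrays. Whether this bears on the C1q values was not tested.

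**Figure D2:**
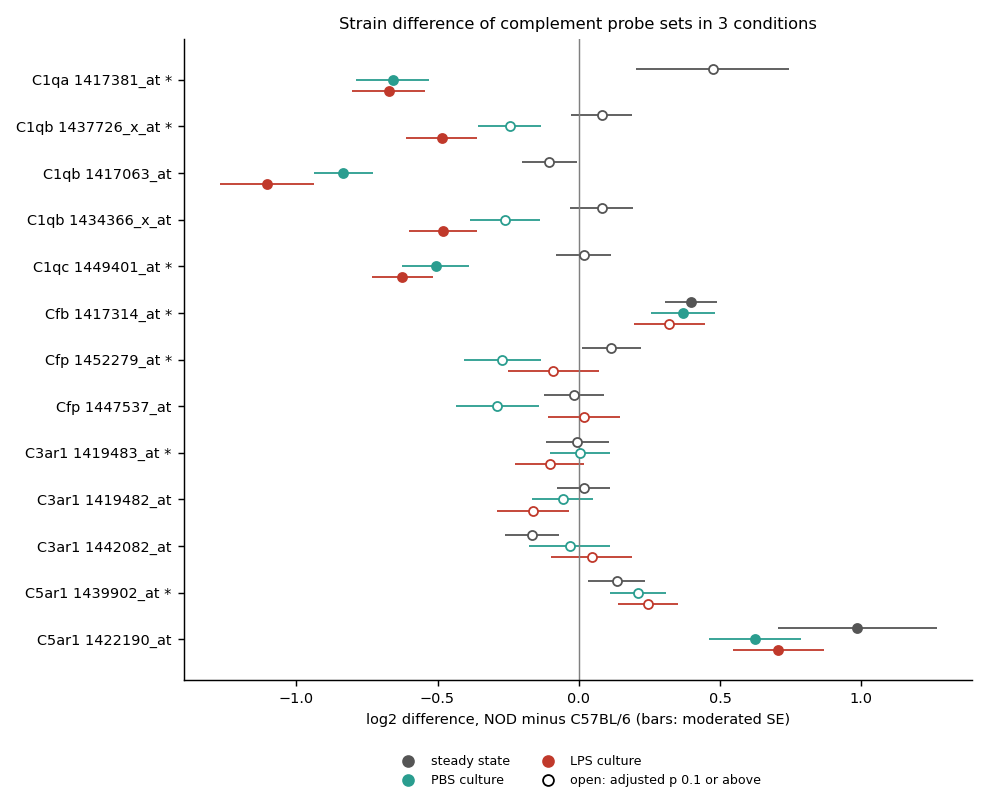
Log2 difference between NOD and C57BL/6 (x axis; positive is higher in NOD) of the 13 complement probe sets (y axis) at steady state, in PBS culture and in LPS culture. Points are differences, bars the moderated SE, filled points passed the test, and an asterisk marks the brightest probe set of a gene. The filled C1q points lie on the lower side in both cultures, and the filled Cfb and C5ar1 points on the higher side.

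Factor B was the member with the steadiest strain difference at steady state. Cfb stood at 10.75, 10.62, 10.77 and 10.69 in C57BL/6 and at 11.18, 11.07 and 11.07 in NOD. The groups did not overlap (log2 difference 0.40, SE 0.0911, adjusted p = 0.0184), and the call held without each array in turn. With PBS it was at 13.54, 13.59, 13.32 and 13.58 in C57BL/6 and at 14.03, 13.78, 13.84 and 13.85 in NOD, without overlap. The log2 difference was 0.37 (SE 0.113, adjusted p = 0.0823), and leaving out any 1 of the 8 arrays gave adjusted p from 0.107 to 0.185, so this call rests on the full number of arrays. With LPS it was at 13.61, 13.33 and 13.72 in C57BL/6 and at 13.88, 13.93, 13.80 and 13.88 in NOD. These groups did not overlap, but the log2 difference of 0.32 (SE 0.125) did not pass (adjusted p = 0.187).

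Properdin did not pass between the strains in any condition. Its brightest probe set had log2 differences of 0.12 (SE 0.104, adjusted p = 0.522) at steady state, −0.27 (SE 0.136, adjusted p = 0.322) with PBS and −0.09 (SE 0.161, adjusted p = 0.849) with LPS. The groups overlapped in all 3 conditions.

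By brightest probe set, neither the C3a nor the C5a receptor gene passed between the strains in any condition. None of the 3 probe sets of C3ar1 passed between the strains in any condition, with log2 differences from −0.17 to 0.05 and adjusted p from 0.307 to 0.989. The dimmer probe set of C5ar1, 1422190_at, was higher in NOD in all 3 conditions. At steady state it stood at 11.83, 12.08, 11.83 and 10.90 in C57BL/6 and at 12.20, 13.18 and 12.56 in NOD. The groups did not overlap, with C57BL/6 replicate 6 the lowest and NOD replicate 4 the highest array (log2 difference 0.99, SE 0.281, adjusted p = 0.0508). Leaving out NOD steady state replicate 4 or 6 ended the call (adjusted p = 0.186 and 0.115).

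With PBS that probe set stood at 11.96, 11.77, 12.48 and 11.97 in C57BL/6 and at 12.42, 12.61, 12.79 and 12.86 in NOD, overlapping at C57BL/6 replicate 3 (log2 difference 0.62, SE 0.164, adjusted p = 0.0436). The call was lost without C57BL/6 PBS replicate 2 (adjusted p = 0.116), NOD PBS replicate 3 (adjusted p = 0.119) or NOD PBS replicate 4 (adjusted p = 0.117). With LPS it stood at 11.64, 12.07 and 12.09 in C57BL/6 and at 12.43, 12.49, 12.75 and 12.89 in NOD, without overlap. That difference, 0.71 (SE 0.161, adjusted p = 0.0271), held without each array in turn. The brightest probe set of C5ar1, 1439902_at, stood at 13.70, 13.70, 13.68 and 13.58 in C57BL/6 and at 13.82, 13.94, 13.92 and 13.81 in NOD with PBS. With LPS it stood at 13.55, 13.59 and 13.53 in C57BL/6 and at 13.78, 13.87, 13.73 and 13.82 in NOD. It had differences in the same direction of 0.13, 0.21 and 0.24 in the 3 conditions, none of which passed (adjusted p = 0.435, 0.292 and 0.246). Its groups did not overlap in PBS and LPS culture. Neutrophils are a cell type that carries much C5ar1. Of the 6 measured of 8 listed neutrophil markers, 2 were higher and 1 was lower in NOD at steady state, where 6.87% of all genes were higher and 8.35% lower. With PBS 0 were higher and 3 lower, against 5.43% and 5.28% of all genes. With LPS 1 was higher and 4 were lower, against 5.21% and 5.43%. Whether these markers bear on the C5ar1 values was not tested.

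Taking each gene by its brightest probe set, 1 of the 7 members was higher and 0 were lower in NOD at steady state, where 6.87% of all genes were higher and 8.35% lower. The median log2 difference of the members was 0.115, and that of all genes 0.0297. With PBS 1 member was higher and 2 were lower, against 5.43% and 5.28% of all genes, and the medians were −0.245 and 0.0423. With LPS 0 were higher and 3 lower, against 5.21% and 5.43% of all genes, and the medians were −0.104 and 0.0127. The 3 lower members in LPS culture were the 3 C1q chain genes.

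The next question was how the genes responded to LPS. C1qa and C1qc fell in both strains, by 1.83 to 2.06-fold, and no member rose. Cfb, Cfp and C5ar1 had no probe set that passed. In NOD, C1qb and C3ar1 also fell.

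In NOD the C1qa values lay between 11.40 and 11.78 with PBS and between 10.44 and 10.81 with LPS, without overlap (log2 difference −0.88, SE 0.122, adjusted p = 0.00456). In C57BL/6 they lay between 12.01 and 12.45 and between 11.20 and 11.42, again without overlap (−0.87, SE 0.137, adjusted p = 0.0387). That call was lost without C57BL/6 PBS replicate 1 (adjusted p = 0.104), C57BL/6 PBS replicate 4 (adjusted p = 0.105), C57BL/6 LPS replicate 2 (adjusted p = 0.13) or C57BL/6 LPS replicate 3 (adjusted p = 0.101). C1qc fell by 1.04 on the log2 scale in NOD (SE 0.105, adjusted p = 9.22e-04) and by 0.93 in C57BL/6 (SE 0.121, adjusted p = 0.0203). Neither C1qc call was lost with any array left out. Every LPS array of C1qc was below every PBS array of the same strain.

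For C1qb, the probe set 1417063_at fell by 0.77 in NOD (SE 0.127, adjusted p = 0.0105), without overlap and in every fit that left out an array. In C57BL/6 its groups did not overlap either, but the log2 difference of −0.50 (SE 0.142) did not pass (adjusted p = 0.197). The brightest probe set stood at 14.05, 14.12, 13.93 and 13.92 with PBS and at 13.55, 13.72, 13.63 and 13.42 with LPS in NOD, without overlap (−0.42, SE 0.106, adjusted p = 0.0714). In C57BL/6 it stood at 14.36, 14.36, 14.10 and 14.18 with PBS and at 14.21, 13.93 and 14.07 with LPS, overlapping (−0.18, SE 0.129, adjusted p = 0.697). The NOD call of the brightest probe set was lost without any of 6 of the 8 arrays, with adjusted p from 0.129 to 0.193, and it held without NOD PBS replicate 3 and without NOD LPS replicate 2. The probe set 1434366_x_at differed there by −0.40 (SE 0.106, adjusted p = 0.0873), a call that leaving out any of the 8 arrays ended (adjusted p from 0.111 to 0.225).

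C3ar1, by its brightest probe set 1419483_at, stood at 13.39, 13.31, 13.16 and 13.42 with PBS and at 12.95, 13.02, 12.66 and 12.90 with LPS in NOD. The groups did not overlap (log2 difference −0.44, SE 0.113, adjusted p = 0.0797), but leaving out any array other than NOD PBS replicate 3 ended the call, with adjusted p from 0.108 to 0.216. In C57BL/6 it stood at 13.39, 13.28, 13.26 and 13.33 with PBS and at 13.06, 12.98 and 12.92 with LPS. All LPS arrays were lower there too, but the difference of −0.33 (SE 0.112) did not pass (adjusted p = 0.295). The probe set 1419482_at fell in NOD by 0.43 (SE 0.0939, adjusted p = 0.0368), a call lost without NOD PBS replicate 4 (adjusted p = 0.116) or NOD LPS replicate 4 (adjusted p = 0.106). The probe set 1442082_at differed by −0.46 (SE 0.147, adjusted p = 0.163) in NOD and passed when blocked on the replicate number (adjusted p = 0.019).

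Cfb did not pass in either strain, with log2 differences of −0.00444 (SE 0.0992, adjusted p = 0.997) in NOD and 0.04 (SE 0.138, adjusted p = 0.957) in C57BL/6. The brightest Cfp probe set differed by 0.15 (SE 0.15, adjusted p = 0.806) in NOD and by −0.03 (SE 0.142, adjusted p = 0.975) in C57BL/6. The brightest C5ar1 probe set differed by −0.07 (SE 0.0946, adjusted p = 0.879) in NOD and by −0.11 (SE 0.109, adjusted p = 0.815) in C57BL/6.

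By brightest probe set, 0 of 7 members rose and 4 fell in NOD, against 1.93% of all genes higher and 2.46% lower, with medians of −0.422 and −0.00413 on the log2 scale. In C57BL/6, 0 rose and 2 fell, against 0.945% and 0.868% of all genes, with medians of −0.181 and 0.0248. Of the 15 macrophage markers, 1 was higher and 5 were lower with LPS in NOD, and 1 was higher and 1 lower in C57BL/6, with median log2 differences of −0.249 and −0.248. In NOD, Mrc1 was higher (0.63, adjusted p = 0.0289), and Cd5l (−1.08, adjusted p = 0.0261), Mertk (−0.70, adjusted p = 0.0262), Timd4 (−0.62, adjusted p = 0.0608), Csf1r (−0.57, adjusted p = 0.0673) and Lyz2 (−0.37, adjusted p = 0.0956) were lower. In C57BL/6, Cd14 was higher (0.94, adjusted p = 0.0822) and Mertk lower (−0.89, adjusted p = 0.0432). Their part in the C1q values was not tested.

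The strain difference in the LPS response itself was tested as an interaction over the 15 cultured arrays. In limma 0 of the 7 members passed, and 0 had an unadjusted p under 0.05, against 0.0165% of all genes higher and 0.00550% lower in this test. For C1qa the interaction was −0.01 (SE 0.179), for C1qc −0.12 (SE 0.146) and for C3ar1 −0.11 (SE 0.147) on the log2 scale, each with an adjusted p of 1. The fall of C1qb and C3ar1 in NOD was therefore not shown to differ from that in C57BL/6.

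**Figure D3:**
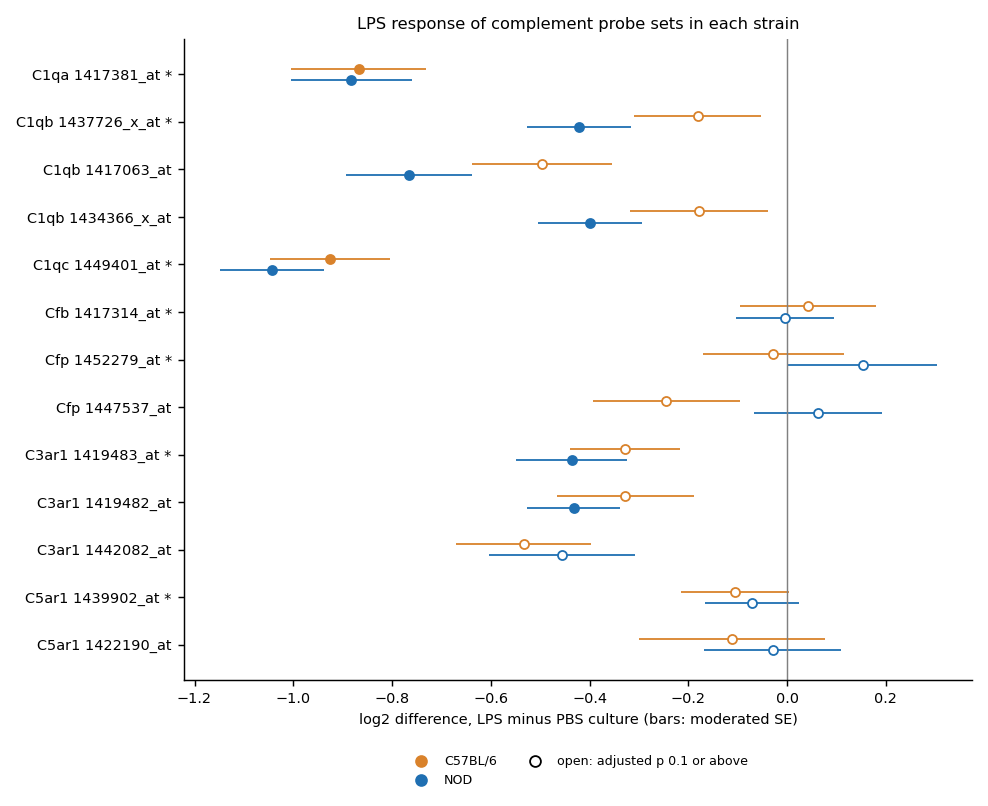
Log2 difference between LPS and PBS culture (x axis; positive is higher with LPS) of the 13 complement probe sets (y axis) in C57BL/6 and NOD. Points are differences, bars the moderated SE, filled points passed the test, and an asterisk marks the brightest probe set of a gene. C1qa and C1qc are filled on the lower side in both strains, whereas the Cfb, Cfp and C5ar1 points lie near 0 or are open.

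The largest differences were those between PBS culture and steady state, in which most genes of the array changed as well. Cfb rose by 6.83-fold in NOD and 6.98-fold in C57BL/6. Cfp fell by 4.86-fold and 3.72-fold, C1qa fell by 3.71-fold and 1.69-fold, and C1qc by 3.38-fold and 2.35-fold. In this comparison culture, the time since sorting and the lower acinar RNA cannot be told apart.

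In NOD, Cfb lay between 11.07 and 11.18 at steady state and between 13.78 and 14.03 with PBS, and the log2 difference was 2.77 (SE 0.116, adjusted p = 4.43e-09). In C57BL/6 it lay between 10.62 and 10.77 and between 13.32 and 13.59 (2.80, SE 0.102, adjusted p = 1.09e-09). Cfp by its brightest probe set stood at 13.69, 13.46, 13.54 and 13.36 at steady state and at 11.63, 11.59, 11.89 and 11.35 with PBS in C57BL/6. In NOD it stood at 13.56, 13.70 and 13.63 at steady state and at 11.37, 11.16, 11.52 and 11.34 with PBS. No cultured array reached a steady state array in either strain. The log2 differences were −1.90 (SE 0.128, adjusted p = 1.42e-07) in C57BL/6 and −2.28 (SE 0.123, adjusted p = 3.27e-08) in NOD. The dimmer Cfp probe set fell by 0.34 (SE 0.128, adjusted p = 0.0339) in C57BL/6 and by 0.61 (SE 0.139, adjusted p = 0.00275) in NOD. Its C57BL/6 call was lost without C57BL/6 PBS replicate 2 (adjusted p = 0.101).

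C1qa fell by 1.89 in NOD (SE 0.188, adjusted p = 5.28e-06), without overlap, and by 0.76 in C57BL/6 (SE 0.215, adjusted p = 0.00842), where C57BL/6 steady state replicate 6 overlapped the cultured arrays. C1qc fell by 1.76 in NOD (SE 0.123, adjusted p = 2.79e-07) and by 1.24 in C57BL/6 (SE 0.106, adjusted p = 1.06e-06), without overlap in either strain. The C1qb probe set 1417063_at fell by 1.25 (SE 0.113, adjusted p = 2.31e-06) and 0.52 (SE 0.101, adjusted p = 7.93e-04). The brightest C1qb probe set did not pass, with −0.17 (SE 0.115, adjusted p = 0.23) in NOD and 0.16 (SE 0.113, adjusted p = 0.23) in C57BL/6. The third, 1434366_x_at, was higher with PBS in C57BL/6 by 0.26 (SE 0.123, adjusted p = 0.0784), a call lost without C57BL/6 steady state replicate 1 or 6 or C57BL/6 PBS replicate 1 or 2 (adjusted p from 0.127 to 0.2), and differed by −0.08 (SE 0.12, adjusted p = 0.591) in NOD. Which probe set stands for C1qb thus decides whether it fell in culture.

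The receptor C3ar1 rose in culture on its 3 probe sets in both strains. Its brightest rose by 0.30 in NOD (SE 0.121, adjusted p = 0.0478) and 0.29 in C57BL/6 (SE 0.107, adjusted p = 0.0298), and 1419482_at by 0.72 (SE 0.109, adjusted p = 1.55e-04) and 0.80 (SE 0.105, adjusted p = 3.97e-05). The probe set 1442082_at rose by 0.52 (SE 0.135, adjusted p = 0.00636) and 0.38 (SE 0.119, adjusted p = 0.0143). Leaving out NOD steady state replicate 1 or NOD PBS replicate 4 ended the NOD call of the brightest (adjusted p = 0.172 and 0.101). The brightest C5ar1 probe set was at 13.49, 13.75 and 13.62 at steady state and at 13.82, 13.94, 13.92 and 13.81 with PBS in NOD (0.25, SE 0.117, adjusted p = 0.0803). Leaving out NOD steady state replicate 1 or 6 or NOD PBS replicate 2 or 3 ended that call (adjusted p = 0.259, 0.176, 0.143 and 0.141). In C57BL/6 its difference of 0.18 (SE 0.0943) did not pass (adjusted p = 0.114).

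By brightest probe set, 3 of 7 members rose and 3 fell in NOD, against 41.6% of all genes higher and 30.0% lower. In C57BL/6, 2 rose and 3 fell, against 44.6% and 32.3%. The member medians were −0.166 and 0.159, and those of all genes 0.156 and 0.168. Shares of members and of all genes called were thus of similar size. Of the 15 macrophage markers, 3 rose and 10 fell in NOD and 2 rose and 12 fell in C57BL/6, with medians of −1.01 and −1.12.

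**Figure D4:**
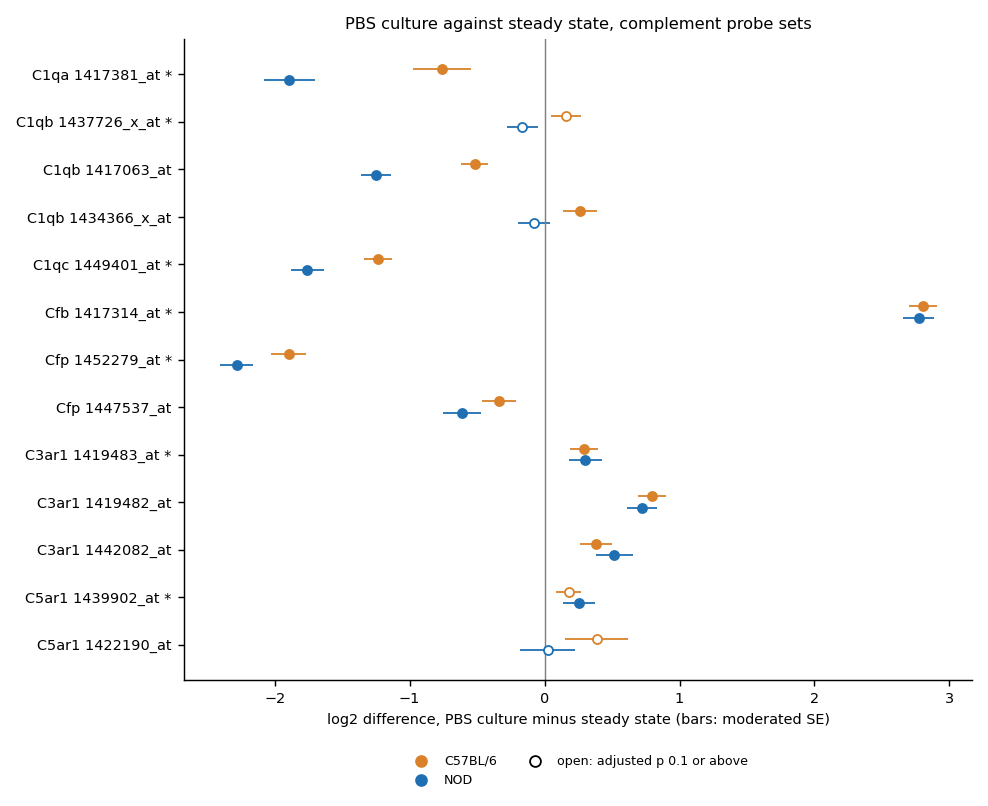
Log2 difference between PBS culture and steady state (x axis; positive is higher in culture) of the 13 complement probe sets (y axis) in C57BL/6 and NOD. Points are differences, bars the moderated SE, filled points passed the test, and an asterisk marks the brightest probe set of a gene. Cfb lies near 2.8 and the brightest Cfp probe set near −2 in both strains, and the C1qa, C1qc and 1417063_at points lie farther below 0 in NOD than in C57BL/6.

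Whether the strains differed in this change was tested over the 15 arrays of both strains at steady state and in PBS culture. C1qa had an interaction of −1.13 (SE 0.316, adjusted p = 0.0495), C1qc of −0.52 (SE 0.151, adjusted p = 0.0596) and the C1qb probe set 1417063_at of −0.73 (SE 0.135, adjusted p = 0.0035) on the log2 scale, the negative sign meaning a larger estimated fall in NOD. In a fit blocked on the replicate number within each strain none of these 3 passed (adjusted p = 0.266, 0.571 and 0.271), although the numbers were not taken as pairs between culture and steady state. By brightest probe set, 0 members were higher and 2 lower, against 4.91% and 2.89% of all genes, with medians of −0.326 and 0.0055. Leaving out NOD steady state replicate 4 or 6 ended the C1qa call (adjusted p = 0.171 and 0.115). That of C1qc was lost without either of these arrays (adjusted p = 0.157 and 0.107), C57BL/6 steady state replicate 6 (adjusted p = 0.126), C57BL/6 PBS replicate 1 (adjusted p = 0.101) or NOD PBS replicate 3 (adjusted p = 0.115). The call of 1417063_at held without each array in turn. Cfb had an interaction of −0.03 (SE 0.14, adjusted p = 0.953) and did not pass.

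Over the 6 groups, C1qa ranked from NOD and C57BL/6 steady state (means of 13.44 and 12.97) through C57BL/6 PBS (12.21), NOD PBS (11.55) and C57BL/6 LPS (11.34) to NOD LPS (10.67). The arrays of neighbouring groups overlapped except between C57BL/6 and NOD with PBS and between C57BL/6 and NOD with LPS. C1qc had the same order, with means of 14.22, 14.21, 12.97, 12.46, 12.04 and 11.42, and only its 2 steady state groups overlapped. Cfb ranked from NOD PBS (13.88) and NOD LPS (13.87) through C57BL/6 LPS (13.55) and C57BL/6 PBS (13.51) to NOD (11.11) and C57BL/6 (10.71) at steady state. Its neighbours overlapped between the media of each strain and nowhere else. C3ar1 was highest with PBS (13.32 in NOD and 13.31 in C57BL/6), and its other 4 groups, with means of 12.88 to 13.03, overlapped with their neighbours in this order. The brightest Cfp probe set had steady state means of 13.63 and 13.51 and cultured means of 11.35 to 11.62, with overlap inside each of these ranges.

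Likeness was measured as the root mean square log2 difference between centred profiles over the 22 arrays, which share the culture change. The gene most like C1qa was C1qc (0.28), followed by Trim65 (0.328) and Slc25a45 (0.361). The genes most like C1qc were Cysltr1, a receptor for leukotrienes (0.236), Gcnt1 (0.248) and Mertk (0.264). The brightest C1qb probe set lay nearest to Ptp4a2 (0.125), Arf6 (0.153) and Bbx (0.161), none of them another C1q chain. Cfb lay nearest to Zfand2a (0.153), Igtp, an interferon-inducible GTPase (0.193), and Dennd6b (0.206). Cfp lay nearest to Ebpl (0.185), Smarca2 (0.201) and 2610507B11Rik (0.204). C3ar1 lay nearest to Siglec1, a macrophage lectin (0.116), Isoc1 (0.126) and Evl (0.133), and C5ar1 to S100a10 (0.0713), Paqr6 (0.0772) and Ppp4r4 (0.0872). The profiles of C1qb, C3ar1 and C5ar1 varied little, with SDs over the arrays of 0.25, 0.205 and 0.155, so small values were easily reached there.

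The other genes of the system were counted from 3 lists of components, regulators, and receptors or C1q-binding proteins, of which 16 of 23, 12 of 14 and 8 of 9 were measured. Each was read from its brightest probe set alone. For C2, Clu and Calr this is an _x_at set, whose probes can also match other transcripts. Between the strains, 4 of the 36 were higher and 5 lower in NOD at steady state, 3 higher and 2 lower with PBS, and 3 higher and 3 lower with LPS. Their median log2 differences were 0.0372, 0.0278 and −0.0685. Of all genes, 6.87%, 5.43% and 5.21% were higher in these conditions, and 8.35%, 5.28% and 5.43% lower. The shares of the 36 were near or above these.

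Among the components, 1 was higher and 1 lower in NOD at steady state, 0 of 16 passed with PBS in limma (1 had an unadjusted p under 0.05), and 1 was higher and 1 lower with LPS. The shares of all genes, higher and lower, were 6.87% and 8.35%, 5.43% and 5.28%, and 5.21% and 5.43%. C1s1, a protease that C1q binds, was lower in NOD at steady state, at 6.29 ± 0.532 (SD, n = 3) against 7.79 ± 0.573 (SD, n = 4), which differed by −1.49 (SE 0.305, adjusted p = 0.01). Of 10 stromal and endothelial markers, 3 were lower there (Col1a2, Col3a1 and Dcn) and 0 higher, against 8.35% and 6.87% of all genes. The summed linear level of the 10 markers was 2940 to 3760 in NOD against 4030 to 6070 in C57BL/6. Their part in the lower C1s1 and Serping1 was not tested. C2, the classical pathway counterpart of Cfb, was higher at steady state by 0.44 (SE 0.128, adjusted p = 0.056) and with LPS by 0.59 (SE 0.176, adjusted p = 0.0839). The LPS call of C2 was lost when blocked on the replicate number (adjusted p = 0.105), and both C2 calls were lost without at least 5 of the 7 arrays in turn. C6, of the membrane attack complex, was lower with LPS by −0.42 (SE 0.129, adjusted p = 0.0861). Its call was lost when blocked on the replicate number (adjusted p = 0.159) and without any 1 array other than NOD LPS replicate 4 (adjusted p from 0.117 to 0.213). Hc encodes C5, which NOD/ShiLtJ mice lack in functional form. Its mRNA did not pass between the strains, at 0.14 (SE 0.103, adjusted p = 0.415) at steady state, −0.10 (SE 0.118, adjusted p = 0.712) with PBS and −0.43 (SE 0.271, adjusted p = 0.46) with LPS, and it was dim at steady state, with means of 6.22 and 6.36 near the lower quartiles of 6.07 and 6.13.

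Among the 12 regulators, 2 were higher and 2 lower at steady state, against 6.87% and 8.35% of all genes. With PBS 2 were higher and 1 lower (5.43% and 5.28%), and with LPS 1 was higher and 1 lower (5.21% and 5.43%). Cd55, which dissolves C3 convertases on host cells, was lower in NOD, by −1.38 (SE 0.375) at steady state, −1.30 (SE 0.243) with PBS and −1.31 (SE 0.371) with LPS on the log2 scale (adjusted p = 0.0414, 0.00743 and 0.0684). The steady state call was lost without NOD steady state replicate 4 (adjusted p = 0.156), and the LPS call without 5 of the 7 arrays in turn, those other than C57BL/6 LPS replicate 4 and NOD LPS replicate 1. Cd59a, which blocks the membrane attack complex, was higher at steady state by 0.71 (SE 0.107, adjusted p = 0.0016) and with PBS by 0.72 (SE 0.155, adjusted p = 0.0164). Cd46, a cofactor for the cleavage of C3b, was higher at steady state by 0.39 (SE 0.0968, adjusted p = 0.0277) and with PBS by 0.54 (SE 0.136, adjusted p = 0.0358). It was dim, with means in C57BL/6 and NOD of 6.71 and 7.10 at steady state and 6.34 and 6.89 with PBS. The lower quartiles of these groups were 6.07, 6.13, 6.26 and 6.31. The steady state call of Cd46 was lost in 1 fit of all 22 arrays. Clu, which encodes clusterin, an inhibitor of the membrane attack complex, was higher with LPS by 1.18 (SE 0.323, adjusted p = 0.0589), a call lost without C57BL/6 LPS replicate 2 or 3 or NOD LPS replicate 2 or 4 (adjusted p = 0.162, 0.198, 0.149 and 0.123). Serping1, the inhibitor of C1 proteases, was lower at steady state, by −0.79 (SE 0.202, adjusted p = 0.0314), but not without NOD steady state replicate 4 (adjusted p = 0.111).

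Among the 8 receptors and C1q-binding proteins, 1 was higher and 2 lower at steady state, against 6.87% and 8.35% of all genes. In each culture 1 was higher and 1 lower, against 5.43% and 5.28% with PBS and 5.21% and 5.43% with LPS. Cd93, described as a C1q receptor of myeloid cells, was higher in NOD in all 3 conditions, at 13.26 ± 0.0487 (SD, n = 3) against 12.19 ± 0.164 (SD, n = 4) at steady state. The log2 differences were 1.07 (SE 0.109, adjusted p = 1.08e-04), 0.96 (SE 0.173, adjusted p = 0.00593) and 1.36 (SE 0.261, adjusted p = 0.0117). Calr, which encodes the C1q-binding protein calreticulin, was lower in NOD in all 3 conditions by its _x_at probe set. It differed by −0.44 (SE 0.0938, adjusted p = 0.0133), −0.61 (SE 0.104, adjusted p = 0.00425) and −0.71 (SE 0.108, adjusted p = 0.00346). Itgax, the CD11c chain of complement receptor 4 and the marker of the sort, was lower in NOD at steady state by −0.43 (SE 0.0894, adjusted p = 0.0114). These 7 calls held without each array in turn.

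**Figure D5:**
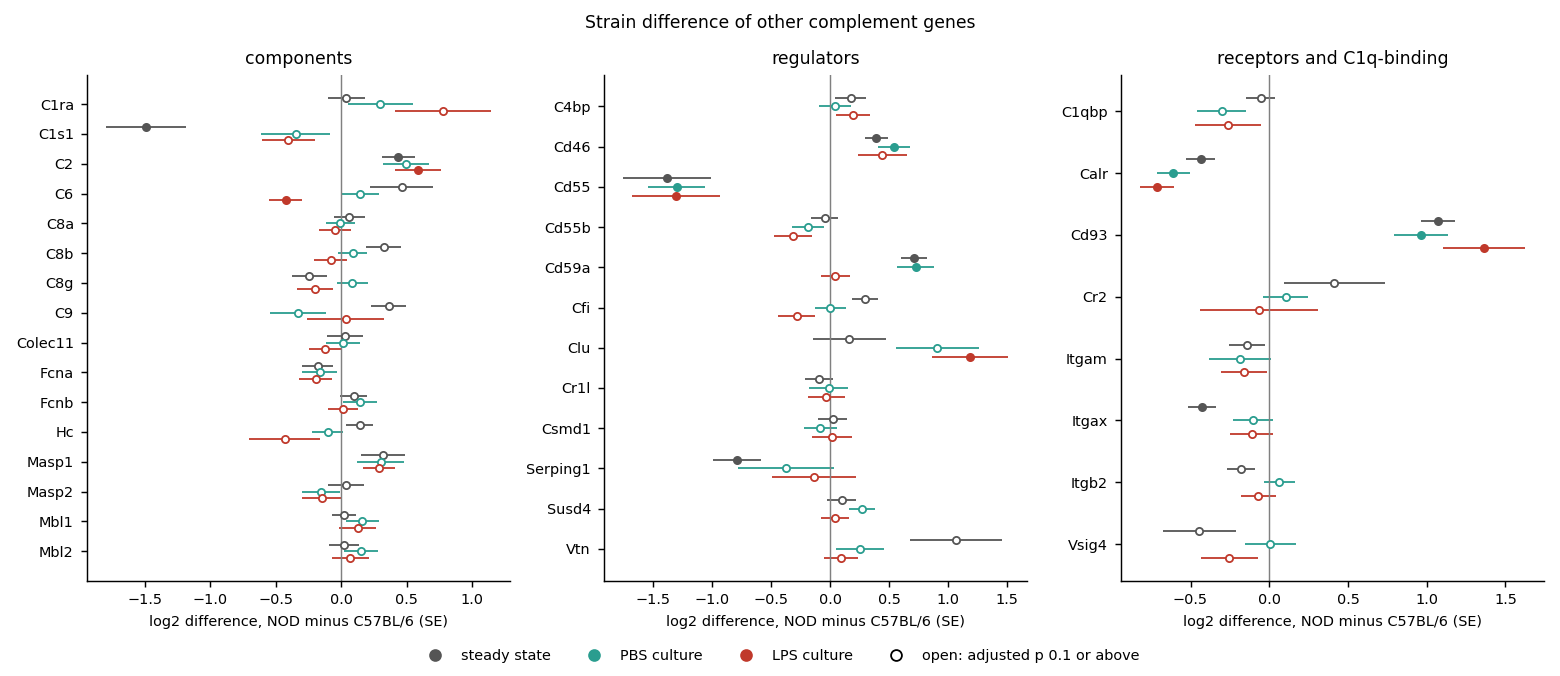
Log2 difference between NOD and C57BL/6 (x axes; positive is higher in NOD) of 16 other complement components, 12 regulators and 8 receptors or C1q-binding proteins (y axes) in 3 conditions. Points are differences of the brightest probe set, bars the moderated SE, and filled points passed the test. Cd93 and Calr are filled on opposite sides in all 3 conditions, and Cd55 is filled on the lower side in all 3.

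In response to LPS, 0 of the 36 rose and 3 fell in NOD, against 1.93% and 2.46% of all genes, and 1 rose and 2 fell in C57BL/6, against 0.945% and 0.868%. Itgax fell by 0.58 in NOD (SE 0.142, adjusted p = 0.0629) and by 0.57 in C57BL/6 (SE 0.115, adjusted p = 0.0642, or 0.106 when blocked on the replicate number), and Itgb2, its partner chain, by 0.42 in NOD (SE 0.0972, adjusted p = 0.0483). Cd93 fell by 1.06 in C57BL/6 (SE 0.223, adjusted p = 0.0775). Hc rose by 0.80 in C57BL/6 (SE 0.167, adjusted p = 0.0744), and Cd59a fell by 0.48 in NOD (SE 0.123, adjusted p = 0.0756). Each of these 6 calls was lost with at least 4 arrays left out in turn. In limma 0 of the 36 passed for the strain by LPS interaction, where 1 component and 1 regulator had an unadjusted p under 0.05. Of all genes, 0.0165% were higher and 0.00550% lower in that test.

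After PBS culture, 12 of the 36 were higher and 11 lower in NOD, against 41.6% and 30.0% of all genes, and 13 higher and 13 lower in C57BL/6, against 44.6% and 32.3%. These shares were near or below the background. Of the 8 receptors and C1q-binding proteins, 0 were higher and 6 lower in both strains, 2 did not pass, and the medians were −1.36 in NOD and −1.22 in C57BL/6. Vsig4, a macrophage receptor for C3b, fell by 5.36 in NOD (SE 0.17, adjusted p = 6.14e-10) and fell by 5.81 in C57BL/6 (SE 0.213, adjusted p = 1.17e-09), to means of 5.84 in both strains, below the lower quartile of the arrays. Cd93 changed by −2.56 in NOD and −2.45 in C57BL/6 (adjusted p = 8.2e-08 and 4.87e-08), and Itgax by −1.96 and −2.29 (adjusted p = 3.22e-07 and 2.84e-09). C1qbp, a mitochondrial protein that binds C1q, fell by 1.94 (SE 0.131, adjusted p = 2.15e-07) and 1.69 (SE 0.138, adjusted p = 6.88e-07).

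Of the 16 components, 11 were higher and 2 lower in NOD, against 41.6% and 30.0% of all genes. In C57BL/6, 9 were higher and 3 lower, against 44.6% and 32.3%. Masp1, a protease of the lectin pathway, rose by 2.11 (SE 0.159, adjusted p = 5.19e-07) in NOD and by 2.12 (SE 0.186, adjusted p = 1.26e-06) in C57BL/6. C2, by its _x_at probe set, rose by 1.61 (SE 0.149, adjusted p = 2.92e-06) and 1.55 (SE 0.164, adjusted p = 6.27e-06), in the same direction as Cfb. Fcna, a ficolin of macrophages, changed by −2.01 (SE 0.141, adjusted p = 2.89e-07) and −2.03 (SE 0.118, adjusted p = 4.18e-08). Hc was higher in NOD by 0.85 (SE 0.121, adjusted p = 9.36e-05), and C9, of the membrane attack complex, in C57BL/6 by 1.45 (SE 0.213, adjusted p = 9.57e-05). Beside the same shares of all genes, 1 of the 12 regulators was higher and 3 lower in NOD. In C57BL/6, 4 were higher and 4 lower. Serping1 was higher by 1.98 (SE 0.28, adjusted p = 9.08e-05) in NOD and 1.57 (SE 0.362, adjusted p = 0.00256) in C57BL/6. Cr1l, a regulator of C3 convertases, was lower by −1.02 (SE 0.189) and −1.10 (SE 0.1), with adjusted p of 7.06e-04 and 1.72e-06. Vtn, which encodes vitronectin, was lower in NOD by −1.14 (SE 0.385, adjusted p = 0.0234), and Clu in C57BL/6 by −1.17 (SE 0.22, adjusted p = 6.43e-04). Cd55 was lower by −0.77 in NOD (SE 0.291, adjusted p = 0.0385) and −0.85 in C57BL/6 (SE 0.312, adjusted p = 0.0305), and its NOD call was lost without NOD steady state replicate 1 or 6 or NOD PBS replicate 2 (adjusted p = 0.117, 0.186 and 0.107). With array weights the Vtn difference was −0.37 (adjusted p = 0.318). In limma 0 of the 36 passed for the strain by culture interaction, where 2 components and 0 regulators or receptors had an unadjusted p under 0.05. Of all genes, 4.91% were higher and 2.89% lower in that test.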

How the data were processed

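Values are log2 expression per probe set, made by the authors with RMA (BRB-ArrayTools, version not given in the sources used here) and deposited as 1 table. From these, 64 AFFX controls were left out, and 45037 probe sets on 22 arrays were fitted with limma 3.58.1 (R 4.3.3), each comparison on its own groups with a moderated spread and no filter. Depth has no meaning for arrays, and the 3 or 4 arrays per group limit the precision. A call is a Benjamini-Hochberg adjusted p under 0.1 over all probe sets. Each gene is represented by the probe set with the highest mean over the arrays among those annotated to it alone. Replicates are labelled separate samples from pools, so p-values measure the spread between pools and arrays within a group. Cells of 1 sort measured in more than 1 group would be paired, which the main tests do not use.

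Members and lists were chosen with earlier results of these data known. All members are named, and per list and comparison up to 4 called genes with the largest log2 difference. The strain values of Hc were named outside this rule after they had been seen. So were the called macrophage markers between strains and with LPS, and the called stromal markers at steady state. For each member the 3 genes nearest in profile are named. Annotation came from the platform table, matched by Entrez id for 99.4% of probe sets naming 1 gene.

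Residuals of arrays with the same replicate number correlated by 0.109 to 0.433 between strains at steady state, 0.137 to 0.32 with PBS, 0.114 to 0.345 with LPS, and 0.241 to 0.487 between LPS and PBS within a strain. Between strains, NOD replicate 1 at steady state and NOD replicate 3 with PBS did not correlate best with their own number. In culture against steady state only C57BL/6 replicate 4 did not. Pairing by number is thus uncertain between strains. Between LPS and PBS within a strain, every shared number correlated best with its own. The LPS tests thus leave out a pairing that may exist. The main tests did not use the replicate number, and the block is given where it changed a call. Alternatives were an adjusted p under 0.05, removal of the 50% dimmest probe sets, a common fit of the 22 arrays, median centring, an intensity trend with robust spread, array weights, the block, probe set means per gene, and each array left out. The code was tested on simulated data. Figures used Python 3.11.15 with matplotlib 3.10.9.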

Additional observations from a re-analysis of the deposited data

Results flagged for a closer look

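The change from steady state to PBS culture differed between the strains, by a test of that difference in limma, for C1qa (interaction −1.13 on the log2 scale, adjusted p = 0.0495), for C1qc (−0.52, adjusted p = 0.0596) and for the C1qb probe set 1417063_at (−0.73, adjusted p = 0.0035). None of these passed in limma blocked on the replicate number (adjusted p = 0.266, 0.571 and 0.271). The calls of C1qa and C1qc were also lost without single arrays, as given above. The brightest C1qb probe set did not pass (−0.33, adjusted p = 0.295). Of 52 groups of 4 arrays examined for an array far from the others, 2 had one, and chance gives about 1 in 20 groups. C1qc on C57BL/6 steady state replicate 6 stood at 14.04 against 14.25 to 14.28 on the other arrays, a gap of 0.875 of the group's range. C5ar1 by its brightest probe set on C57BL/6 PBS replicate 4 stood at 13.58 against 13.68 to 13.70, a gap of 0.833 of the range.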

How the results depend on the processing

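Over the 13 probe sets of the members and 9 comparisons, 1834 of 1948 alternative fits kept the direction and call, 79 lost and 35 gained a call, and 0 reversed a called difference. The number of the 7 members called moved by over 1.5 times in these cases. At steady state it was 1 and became 2 with array weights, with the replicate block and with probe set means per gene. With PBS between strains it was 3 and became 5 with the intensity trend and with probe set means per gene. With LPS between strains it was 3 and became 5 in 1 fit of all arrays and with the intensity trend. For LPS in NOD it was 4, became 2 at an adjusted p under 0.05, and ranged from 2 to 4 with each array left out. For LPS in C57BL/6 it was 2 and ranged from 1 to 2. For the strain by culture interaction it was 2, became 1 at an adjusted p under 0.05 and 0 with the replicate block, and ranged from 0 to 2. The cause was not tested. In culture against steady state the replicate numbers were not treated as pairs (correlations of 0.0996 and 0.277 in NOD, −0.0328 and 0.177 in C57BL/6), and the block ended the calls of C5ar1 in NOD (adjusted p = 0.414) and of C3ar1 (adjusted p = 0.212) in C57BL/6 by brightest probe set. It also ended those of 1434366_x_at of C1qb (adjusted p = 0.293) and 1447537_at of Cfp (adjusted p = 0.534) in C57BL/6. For the members by brightest probe set in the other comparisons it changed only the calls already given, C1qa at steady state and the culture interaction. Over all probe sets, the number called moved by over 1.5 times as follows, beside the 50% filter and the means per gene, which test fewer features. At steady state 6769 became 20094 with array weights and 4390 without NOD steady state replicate 6, and with PBS between strains 4447 became 6826 with the block. With LPS between strains 4463 became 2951 at an adjusted p under 0.05 and 2837 without C57BL/6 LPS replicate 3. For LPS in NOD 1693 became 1013 at an adjusted p under 0.05, 2676 in 1 fit of all arrays, 4282 with the block and 911 to 1672 with an array left out. For LPS in C57BL/6 665 became 269, 2030 in 1 fit of all arrays, 1085 with the intensity trend and 84 to 653 with an array left out. For the strain by LPS interaction 11 became 20 in 1 fit of all arrays, 18 with the block and 5 to 14 with an array left out. For the strain by culture interaction 3063 became 2037 at an adjusted p under 0.05, 5586 with array weights, 649 with the block and 1955 to 3232 with an array left out. Of 50 other complement results named by the rule, 34 kept their call in every alternative run, and 0 reversed. Groups of 3 or 4 arrays limit what small differences can be called.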
